A study of Rattus norvegicus with 6 samples.

Results

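The genes described here encode the contractile apparatus of striated muscle and a few of its partners: actins, tropomyosins, troponins, myosins, titin, nebulin, Z-disc and M-band proteins, desmin, muscle enzymes and natriuretic peptides. They were taken by symbol from a fixed list of 49 names, all 49 of which were found among the 40456 genes of the count table. The cells were H9c2 (2-1), a line of rat cardiomyoblasts labelled as cardiomyocytes with a wild-type genotype, and poly-A RNA was sequenced from 6 libraries. The 3 control libraries came from cells given a negative control LNA, and the 3 knockdown libraries from cells given an LNA against Tug1, a long non-coding RNA. Both groups spent 5 days in medium with 1% serum and daily 1 µM retinoic acid, and were transfected at 25 nM with a lipid reagent for 24 h before harvest, so there was no untransfected or undifferentiated group. Nothing in the labels says whether the 3 libraries of a group came from separate cultures, so p-values measure only the spread between these libraries.

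Each LNA was a gapmer, an antisense strand with a DNA core, through which RNase H cuts the paired RNA. Their sequences, 16 bases each as given in the labels, are the only stated difference between the groups.
Tug1 gapmer: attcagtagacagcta
Negative control gapmer: gctcccttcaatccaa

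A sarcomere is the repeating contractile unit of striated muscle. Myosin heavy chains with their light chains form the thick filament and pull on thin filaments of actin, on which tropomyosin and the troponin complex make contraction depend on calcium. Thin filaments are anchored at the Z-disc and thick filaments at the M-band, with titin spanning between them. Most of these proteins come as paralogs that mark heart, slow or fast skeletal muscle, or the embryonic state, and H9c2 cells, although derived from embryonic heart, are known to take on skeletal muscle traits when serum is lowered.

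Library totals ran from 12978548 to 13544337 counts. Tug1 itself had 713, 672 and 718 counts in control libraries 1 to 3 and 164, 152 and 165 in knockdown libraries 1 to 3. Every knockdown library was below every control library, at 22.0% of the mean control level. Levels are given as CPM, counts scaled to library size with edgeR's TMM factors, and changes are log2 fold changes of knockdown over control with the standard error (SE). Genes were called higher or lower where the quasi-likelihood test of edgeR gave a p under 0.05 after Benjamini-Hochberg correction over the 14216 genes tested. The muscle structural genes together took up 0.457% to 0.483% of counts under the control gapmer and 0.577% to 0.619% under the Tug1 gapmer. In bulk RNA, a change in the number of cells that express these genes and a change in RNA per cell cannot be told apart.

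The label cardiomyocyte was checked against 11 defining markers, of which several are also among the genes described here. Only 4 of the 11 passed the filter on low counts: Tnnt2, Actn2, Myl2 and Gata4. The adult heart genes were at or near 0. Myh6 had at most 1 count in any library, Myh7 at most 2, Nkx2-5 at most 1, Tnni3, Myl7 and Nppa at most 4, and the cardiac release channel gene Ryr2 had 3 counts in control library 3 and 0 elsewhere. The summed level of the 11 markers was 351 to 382 CPM in controls and 404 to 454 CPM after knockdown, and nearly all of it was Tnnt2. Some skeletal muscle regulators were present in contrast, and others had few counts or almost none. Myog, a transcription factor of muscle differentiation, was at 275 ± 4.39 CPM in controls and Myod1 at 59.7 ± 3.25 CPM (SD, n = 3 each). Of the same list, Myf5 had at most 1 count in any library, Pax7 at most 8 and Myf6 10 to 28. Myf6 was tested and called higher (0.78, SE 0.317). Of 7 cardiac transcription factor genes only Gata4, Gata6 and Hand2 were tested, and Hand2 (log2 fold change -0.68, SE 0.0755) and Gata6 (-0.75, SE 0.0957) were lower after knockdown. The cells are called H9c2 cells here.

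Markers of other cell types were read in the same way, beside the 30.8% of all tested genes called higher and the 30.9% called lower. Of 10 fibroblast markers 8 were tested, 2 higher (Dcn and Col3a1) and 4 lower (Col1a1, Thy1, Postn and Pdgfrb), with a summed level of 44294 to 45652 CPM in controls and 41601 to 44444 CPM after knockdown and Tcf21 at 0 counts. Most of that sum came from the collagen genes Col1a1, Col1a2 and Col3a1, while the receptor gene Pdgfra had at most 8 counts in any library. Of 6 endothelial markers 1 was tested and 0 were called, at 3.02 to 4.63 CPM in controls and 3.11 to 4.20 CPM after knockdown. Of 6 immune markers 2 were tested, with Cd68 higher (1.09, SE 0.186), Cd14 lower (-1.03, SE 0.0615), Ptprc at 0 counts, and a summed level of 70.6 to 74.8 CPM in controls and 41.2 to 41.6 CPM after knockdown. The part of these changes in the muscle gene results was not tested.

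Transcripts of the contractile apparatus were mostly higher after Tug1 knockdown. Of the 49 genes, 38 passed the filter and were tested, 28 were called higher, 1 was called lower and 9 were not called. Called genes made up 76.3% of those tested, against 61.7% of all tested genes. Those called higher made up 73.7%, against 30.8% of all tested genes, and the lower side held 30.9% of all tested genes. The median log2 fold change of the 38 tested genes was 0.53, and that of all tested genes was 0.00. The 3 knockdown values lay above the 3 control values for 30 of the 38 genes and below them for 1, compared with 33.0% and 32.6% of all tested genes and 65.6% in either direction. Called genes that moved by 1 log2 unit or more numbered 4, Myom1, Actn3, Smpx and Myl2, all higher. Among all tested genes 9.80% did so in either direction and 4.59% upwards. With an offset for genomic gene length Myom1 was at 0.82 and Smpx at 0.89, while Actn3 (1.08) and Myl2 (1.31) stayed above 1. Myl2 was at 0.89 without knockdown replicate 1. The single gene called lower was Myh1, a fast skeletal myosin heavy chain.

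**Figure D1:**
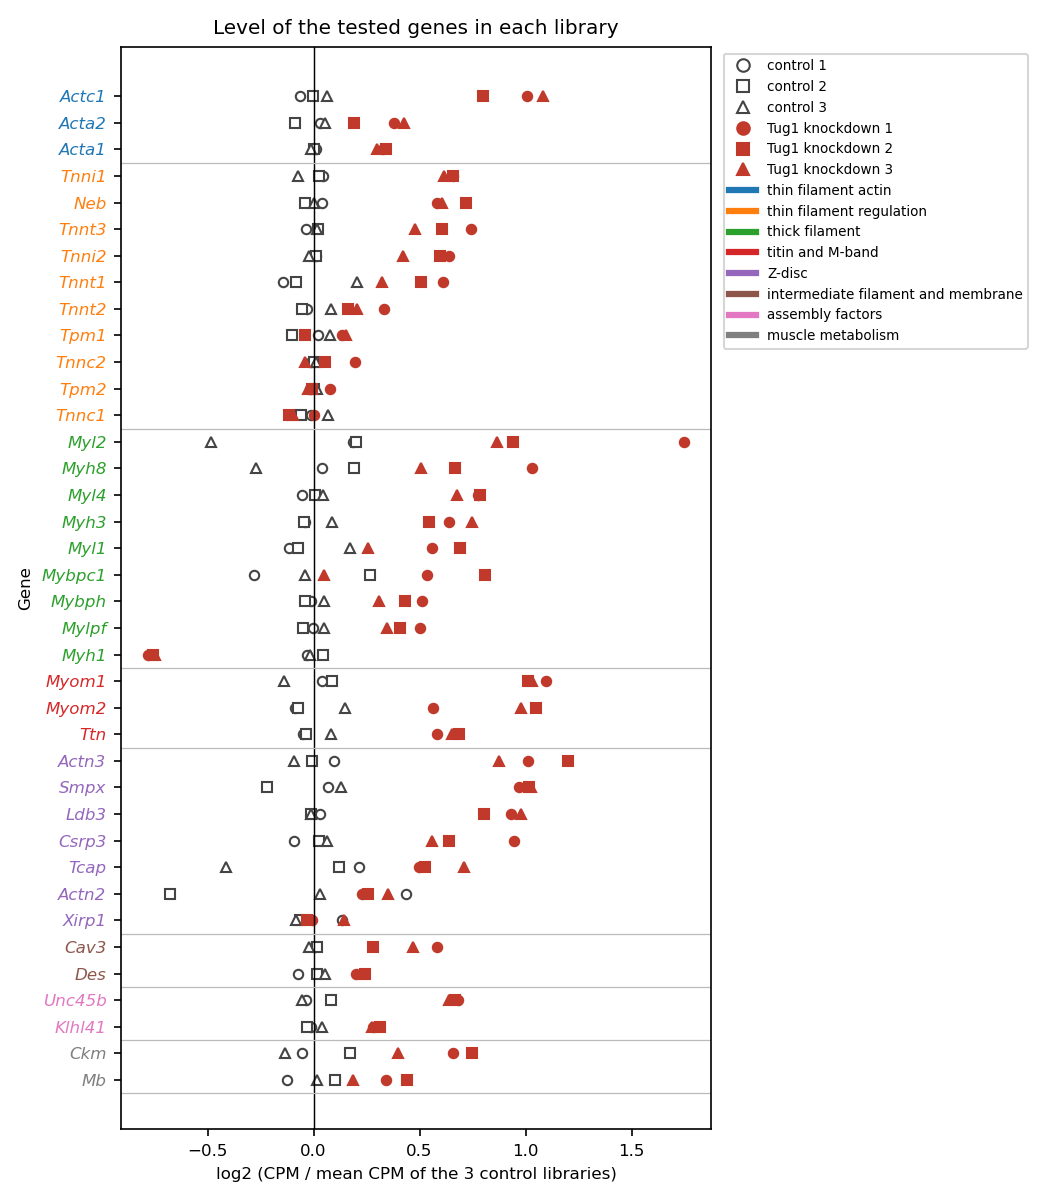
Level of each of the 38 tested muscle structural genes in each library, as the log2 ratio of its CPM to the mean of the 3 control libraries (x axis), with genes on the y axis coloured by filament system. Open symbols are control libraries and filled symbols knockdown libraries; filled symbols lie to the right of the open ones for 30 genes and to the left for Myh1 alone.

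The remaining 11 genes were too low to test. Nppb had 0 counts in every library, which allows up to 0.217 to 0.232 CPM, and Myh6, Myh7, Tnni3, Nppa and Myl3 had at most 4 counts in any library. Myh2, Myh4, Mybpc2, Mybpc3 and Xirp2 had at most 13. Mybpc3, the cardiac myosin binding protein C, had 4, 1 and 2 counts in controls and 6, 6 and 8 after knockdown. Whether these genes differed was not detectable at this depth. Among the tested genes, Myl2 passed the filter only through the knockdown group, so it could be tested only because it was high there. Myh8 and Tcap passed in 2 control libraries and so needed knockdown libraries as well. All 3 genes are included in the counts and medians of tested genes given here.

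All 3 actin genes were called higher, beside 30.8% of all tested genes. Actc1, the alpha-cardiac actin that is also the embryonic form of skeletal muscle, was at 8.82, 9.21 and 9.64 CPM in control libraries 1 to 3 and at 18.6, 16.1 and 19.6 CPM in knockdown libraries 1 to 3. The groups were far apart relative to their spread, with a log2 fold change of 0.97 (SE 0.11, adjusted p 7.45e-08). Acta1, the adult skeletal actin, was at 175, 174 and 173 CPM in controls and 218, 221 and 214 CPM after knockdown, a smaller log2 fold change of 0.32 (SE 0.0450, adjusted p 1.56e-06) that was 0.50 with an offset for genomic gene length. Acta2, the smooth muscle actin that is also made in immature striated muscle, was at 652, 600 and 662 CPM in controls and 829, 728 and 857 CPM after knockdown. Its log2 fold change was 0.33 (SE 0.0531, adjusted p 9.25e-06), and knockdown library 2 was the lowest of the 3. Actin genes are close paralogs, and how reads that match several genes were counted is not given in the sources used here.

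Tropomyosin and troponin genes split into those that rose and those that stayed within the replicate spread. With Neb, 6 of the 10 tested were called (60.0%, below the 61.7% of all tested genes), all higher. Troponin T ties the complex to tropomyosin, and each of its genes was higher. Tnnt3, the fast skeletal form, was at 159, 165 and 164 CPM in controls and 272, 248 and 226 CPM after knockdown, a log2 fold change of 0.61 (SE 0.0560, adjusted p 2.24e-09). Tnnt1, the slow form, was at 19.4, 20.3 and 24.8 CPM in controls and 32.8, 30.5 and 26.9 CPM after knockdown. The groups of Tnnt1 came close, with knockdown library 3 just above control library 3, and its log2 fold change was 0.48 (SE 0.0951, adjusted p 0.000123). Tnnt2, the cardiac form, which embryonic skeletal muscle also makes, moved least of the 3 genes. It was at 342, 335 and 369 CPM in controls and 439, 391 and 402 CPM after knockdown, a log2 fold change of 0.24 (SE 0.0499, adjusted p 0.000291).

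Troponin I, the inhibitory subunit, showed the same direction in both tested genes. Tnni1, the slow skeletal form, was at 74.8, 73.9 and 69.1 CPM in controls and 115, 115 and 111 CPM after knockdown. Its groups were well separated, at a log2 fold change of 0.64 (SE 0.0536, adjusted p 5.09e-10). Tnni2, the fast form, was at 18.7, 18.7 and 18.3 CPM in controls and 28.9, 28.1 and 24.9 CPM after knockdown. Its log2 fold change of 0.56 (SE 0.0848, adjusted p 5.31e-06) fell to 0.30 with an offset for genomic gene length, and stayed called. In the RefSeq gene table the span of Tnni2 runs over the abundant lysosomal gene Ctsd, so its length there and the division of reads between them are uncertain.

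Troponin C, the calcium sensor, was not called in either form. Tnnc2, the fast skeletal gene, was at 377, 381 and 384 CPM in controls and 435, 395 and 370 CPM after knockdown, so knockdown library 3 lay below all controls and knockdown libraries 1 and 2 above them. Its log2 fold change was 0.07 (SE 0.0503, adjusted p 0.222). Tnnc1, the cardiac and slow gene, was at 333, 322 and 351 CPM in controls and 336, 309 and 314 CPM after knockdown. The groups overlapped, with a log2 fold change of -0.07 (SE 0.0472, adjusted p 0.216) that was 0.10 with the length offset. Tnnc2 was called with that offset (0.26), with library totals (0.13) and without knockdown replicate 3 (0.13), and was at 0.0095 without knockdown replicate 1.

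Both tropomyosin genes overlapped between groups. Tpm1, at 754, 692 and 783 CPM in controls and 816, 722 and 826 CPM after knockdown, had a log2 fold change of 0.09 (SE 0.0522, adjusted p 0.163). It passed the threshold with library totals (0.14), with the replicate number as a block (0.08, adjusted p 0.0421) and without knockdown replicate 2 (0.15), and was at 0.03 without control replicate 2. Tpm2, at 541, 546 and 553 CPM in controls and 577, 544 and 536 CPM after knockdown, had a log2 fold change of 0.02 (SE 0.0426, adjusted p 0.768) and passed at 0.10 with the length offset. Tropomyosin genes are spliced into muscle and non-muscle transcripts, which counts per gene do not separate. Neb encodes nebulin, the giant protein that runs along the skeletal thin filament. It was at 149, 141 and 145 CPM in controls and 217, 238 and 220 CPM after knockdown, with no overlap and a log2 fold change of 0.64 (SE 0.0498, adjusted p 1.84e-10). Neb is a long gene, and with the length offset its value was 0.32, still called.

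In the thick filament, the embryonic and adult fast myosin heavy chains went in opposite directions. Myh3, the embryonic myosin heavy chain, was at 171, 170 and 186 CPM in controls and 273, 256 and 295 CPM after knockdown. Every knockdown library was above every control, a 1.56-fold rise with a log2 fold change of 0.64 (SE 0.0539, adjusted p 5.54e-10). Myh1, the heavy chain of fast type IIx fibres, was at 42.0, 44.2 and 42.4 CPM in controls and 24.9, 25.4 and 25.5 CPM after knockdown. The knockdown level was 0.590 of the control level, and both groups were tight, with a log2 fold change of -0.76 (SE 0.0697, adjusted p 2.46e-09). Over the 16 alternatives it ran from -0.78 to -0.71. Myh8, the perinatal form, had 10, 11 and 8 counts in controls and 21, 16 and 14 after knockdown. Its groups did not overlap, but at these counts the log2 fold change of 0.75 (SE 0.343) did not pass (adjusted p 0.0638). The skeletal heavy chain genes are neighbouring paralogs on chromosome 10, so the division of reads that match several of them is uncertain. A non-coding gene that overlaps Myh1 in the RefSeq table had at most 5 counts in any library.

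The light chains, which stiffen the myosin neck, rose in each tested case. Myl4, the atrial and embryonic essential light chain, was at 60.9, 63.6 and 65.3 CPM in controls and 108, 109 and 101 CPM after knockdown. The gap between the groups was far wider than either group, with a log2 fold change of 0.75 (SE 0.0558, adjusted p 8.32e-11). Myl1, the fast skeletal essential light chain, was at 9.89, 10.2 and 12.1 CPM in controls and 15.8, 17.3 and 12.8 CPM after knockdown. Knockdown library 3 lay just above the highest control, and the log2 fold change was 0.51 (SE 0.122, adjusted p 0.000889). Mylpf, the fast skeletal regulatory light chain, was at 220, 213 and 228 CPM in controls and 312, 292 and 280 CPM after knockdown, with no overlap and a log2 fold change of 0.42 (SE 0.0486, adjusted p 1.06e-07). Myl2, the ventricular and slow regulatory light chain, had only 8, 8 and 5 counts in controls and 25, 14 and 13 after knockdown. Its log2 fold change was 1.23 (SE 0.391, adjusted p 0.00881), but the call rested on few counts and was lost without knockdown replicate 1 (0.89, adjusted p 0.0947) or without control replicate 3 (1.05, adjusted p 0.0521).

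Myosin binding proteins brace the thick filament. Mybph was at 50.9, 49.8 and 53.0 CPM in controls and 73.1, 68.9 and 63.4 CPM after knockdown, with the groups apart and a log2 fold change of 0.42 (SE 0.0626, adjusted p 4.08e-06). The span of Mybph overlaps that of the adenosine receptor gene Adora1 in the RefSeq table. Mybpc1, the slow skeletal form, had 29, 42 and 34 counts in controls and 54, 64 and 37 after knockdown. Its groups overlapped, with a log2 fold change of 0.50 (SE 0.227, adjusted p 0.0611). It was called without control replicate 2 (0.65), without knockdown replicate 3 (0.68) and with library totals (0.55), and was at 0.32 without knockdown replicate 2.

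Promoter sequences of Myh3 and Myh1 are shown because these neighbouring paralogs moved in opposite directions, and that of Acta1 because it is the adult skeletal actin and holds each of 4 of the motifs searched. Each is the 250 bases before the RefSeq start in build GRCr8, written 5′ to 3′ on the strand of the gene. Capitals mark motifs that were searched on both strands. The E-box was read as CANNTG, a site of basic helix-loop-helix factors. For the MCAT element the letters searched were CATTCC, and for the TATA element they were TATAAA. The CArG box and the MEF2 site were searched by their degenerate consensus.
Acta1 promoter, chr19:68784195-68784444, minus strand: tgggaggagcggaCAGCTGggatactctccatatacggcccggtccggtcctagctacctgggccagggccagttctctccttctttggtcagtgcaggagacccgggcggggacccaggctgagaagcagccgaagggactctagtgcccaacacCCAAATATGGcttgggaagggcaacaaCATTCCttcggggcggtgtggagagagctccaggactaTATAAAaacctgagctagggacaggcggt
Myh3 promoter, chr10:52268935-52269184, plus strand: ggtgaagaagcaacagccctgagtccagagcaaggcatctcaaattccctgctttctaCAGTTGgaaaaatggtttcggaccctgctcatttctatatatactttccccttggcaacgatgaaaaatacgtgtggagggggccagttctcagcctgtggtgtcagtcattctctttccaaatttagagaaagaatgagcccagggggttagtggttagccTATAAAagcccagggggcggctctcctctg
Myh1 promoter, chr10:52384662-52384911, plus strand: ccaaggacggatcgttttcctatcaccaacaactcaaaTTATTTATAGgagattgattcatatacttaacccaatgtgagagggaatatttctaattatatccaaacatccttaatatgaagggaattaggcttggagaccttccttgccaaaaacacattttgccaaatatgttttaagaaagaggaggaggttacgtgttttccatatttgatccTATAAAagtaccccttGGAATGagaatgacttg

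In Acta1 the capitals mark, in order, an E-box, a CArG box, an MCAT element and a TATA element. Myh3 held an E-box and a TATA element. Myh1 held a MEF2 site that overlapped a TATA match on the other strand. It also held a second TATA match near the start, on the strand of the gene, and an MCAT element on the other strand. A window was found for 42 of the 49 genes, Mylpf under its current name Myl11, and not for Tnnt3, Tnnc1, Myl2, Mybph, Myom2, Tcap and Csrp3. MEF2 sites, bound by the MEF2 factors of muscle, were found in 10 of the 42 (23.8%), compared with 2.96% of 33469 windows of the same length. CArG boxes, bound by serum response factor, were found in 4 (9.52%), compared with 1.5% of windows. MCAT elements, bound by TEAD factors, were found in 11 (26.2%), compared with 12.1%, and E-boxes, bound by MyoD family and many other factors, in 33 (78.6%), compared with 65.5%. TATA elements were found in 13 (31.0%), compared with 12.9%. The 10 genes with a MEF2 match included Myh1, which fell, Xirp1, which was not called, and Ttn, Smpx, Cav3, Klhl41 and Myl1, which rose. A match is a description of letters in the window, not of binding.

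Titin and both myomesins were called higher, beside 30.8% of all tested genes. Ttn encodes titin, the giant spring that spans from Z-disc to M-band. It was at 163, 164 and 178 CPM in controls and 252, 271 and 264 CPM after knockdown, a log2 fold change of 0.64 (SE 0.0493, adjusted p 1.35e-10). Its groups were well apart, and with the length offset the value was 0.29 and still called. Myom1, which crosslinks thick filaments at the M-band, was at 33.1, 34.1 and 29.2 CPM in controls and 68.7, 64.7 and 65.7 CPM after knockdown. That is 2.07-fold, with a log2 fold change of 1.05 (SE 0.0675, adjusted p 7.44e-12). Myom2, the myomesin of fast fibres and adult heart, was at 4.99, 5.03 and 5.86 CPM in controls and 7.83, 10.9 and 10.4 CPM after knockdown. Knockdown library 1 was the lowest of the 3 but still above every control, and the log2 fold change was 0.88 (SE 0.153, adjusted p 3.10e-05).

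At the Z-disc, 4 of 7 tested genes were called (57.1%, below the 61.7% of all tested genes), all higher. Ldb3, an adaptor that binds alpha-actinin, was at 40.2, 39.0 and 39.0 CPM in controls and 75.1, 68.8 and 77.6 CPM after knockdown. The controls were nearly equal and the knockdown libraries 1.87-fold higher in the mean, with a log2 fold change of 0.91 (SE 0.0625, adjusted p 2.33e-11). Actn3, the alpha-actinin of fast fibres, was at 9.05, 8.44 and 7.94 CPM in controls and 17.1, 19.5 and 15.6 CPM after knockdown, a log2 fold change of 1.03 (SE 0.115, adjusted p 5.68e-08). Smpx, a small protein of costamere and Z-disc, was at 6.14, 5.03 and 6.40 CPM in controls and 11.5, 11.8 and 11.9 CPM after knockdown, a log2 fold change of 1.00 (SE 0.131, adjusted p 6.46e-07). In both genes every knockdown library was above every control. Csrp3, the muscle LIM protein, was at 11.7, 12.6 and 13 CPM in controls and 23.9, 19.3 and 18.3 CPM after knockdown, with knockdown library 1 the highest and a log2 fold change of 0.73 (SE 0.109, adjusted p 4.36e-06).

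The other Z-disc genes were not called. Xirp1, which binds actin at sites of growth and repair, was at 36.2, 31.6 and 31.2 CPM in controls and 32.8, 32.3 and 36.4 CPM after knockdown. These groups overlapped fully, with a log2 fold change of 0.04 (SE 0.0781, adjusted p 0.709). Actn2, the alpha-actinin of heart and all skeletal fibres, had 24, 11 and 18 counts in controls and 22, 22 and 23 after knockdown (0.28, SE 0.303). The value was 0.55 without control replicate 1 and 0.03 without control replicate 2. Tcap, the titin cap protein, had 14, 13 and 9 counts in controls and 18, 18 and 20 after knockdown. Its groups did not overlap, and its log2 fold change of 0.57 (SE 0.321) passed only with the length offset, at 0.81.

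Genes around the filaments were also higher. Cav3, the caveolin of the muscle membrane, was at 21.2, 21.4 and 20.8 CPM in controls and 31.7, 25.7 and 29.3 CPM after knockdown, a log2 fold change of 0.45 (SE 0.0858, adjusted p 9.12e-05). Desmin, the muscle intermediate filament, moved little. Des was at 16.4, 17.5 and 18.0 CPM in controls and 19.9, 20.5 and 20.2 CPM after knockdown, a log2 fold change of 0.22 (SE 0.0876, adjusted p 0.0319). Although the groups did not overlap, this call was lost with DESeq2 (adjusted p 0.102), without a filter (0.0831), and without control replicate 1 (0.126), control replicate 2 (0.0539), knockdown replicate 2 (0.0720) or knockdown replicate 3 (0.0573).

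The assembly factors and muscle enzymes rose as well. Unc45b, the chaperone that folds muscle myosin, was at 46.0, 49.9 and 45.4 CPM in controls and 75.5, 74.7 and 73.4 CPM after knockdown, a log2 fold change of 0.66 (SE 0.0588, adjusted p 1.52e-09). Klhl41, a Kelch protein needed for thin filament stability, was at 149, 147 and 154 CPM in controls and 183, 187 and 182 CPM after knockdown, a log2 fold change of 0.29 (SE 0.0469, adjusted p 1.13e-05). Both were tight within groups. Ckm, the muscle creatine kinase, was at 33.0, 38.6 and 31.2 CPM in controls and 54.1, 57.5 and 45.1 CPM after knockdown, a log2 fold change of 0.61 (SE 0.0864, adjusted p 2.03e-06). Mb, which encodes the oxygen store myoglobin, was at 51.5, 60.3 and 56.9 CPM in controls and 71.3, 76.3 and 64.0 CPM after knockdown. Its groups came closer than those of Ckm, with a log2 fold change of 0.33 (SE 0.0691, adjusted p 0.000272).

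Grouped by isoform, genes called higher were found in every class, cardiac ones included. The shares called are to be read beside the 61.7% of all tested genes that were called and the 30.8% that were called higher. Of 11 fast skeletal genes 8 were tested, with 6 higher (75.0%), Myh1 lower and Tnnc2 not called, and a median log2 fold change of 0.53. Of 3 slow skeletal genes all were tested and 2 were higher (66.7%), and of 4 embryonic or perinatal genes all were tested and 3 were higher (75.0%), with medians of 0.50 and 0.70. Of 5 genes shared by heart and slow muscle 3 were tested and 2 were higher, Csrp3 and Myl2. Myl2 could be tested only because it was high in the knockdown group, so its call adds little to this class. Of the 6 genes placed in the cardiac class, only Tnnt2 was tested, and it was higher. Actc1, Acta1 and Acta2, each alone in its class, were higher too. The 17 genes common to striated muscle types had 16 tested and 11 higher (68.8%), with a median of 0.51. Every called gene was higher in all classes but the fast skeletal one. In the slow (66.7%) and common (68.8%) classes the share called was near the 61.7% of all tested genes. Their shares called higher, which were the same values, lay above 30.8%. Differences between the classes were not tested.

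**Figure D2:**
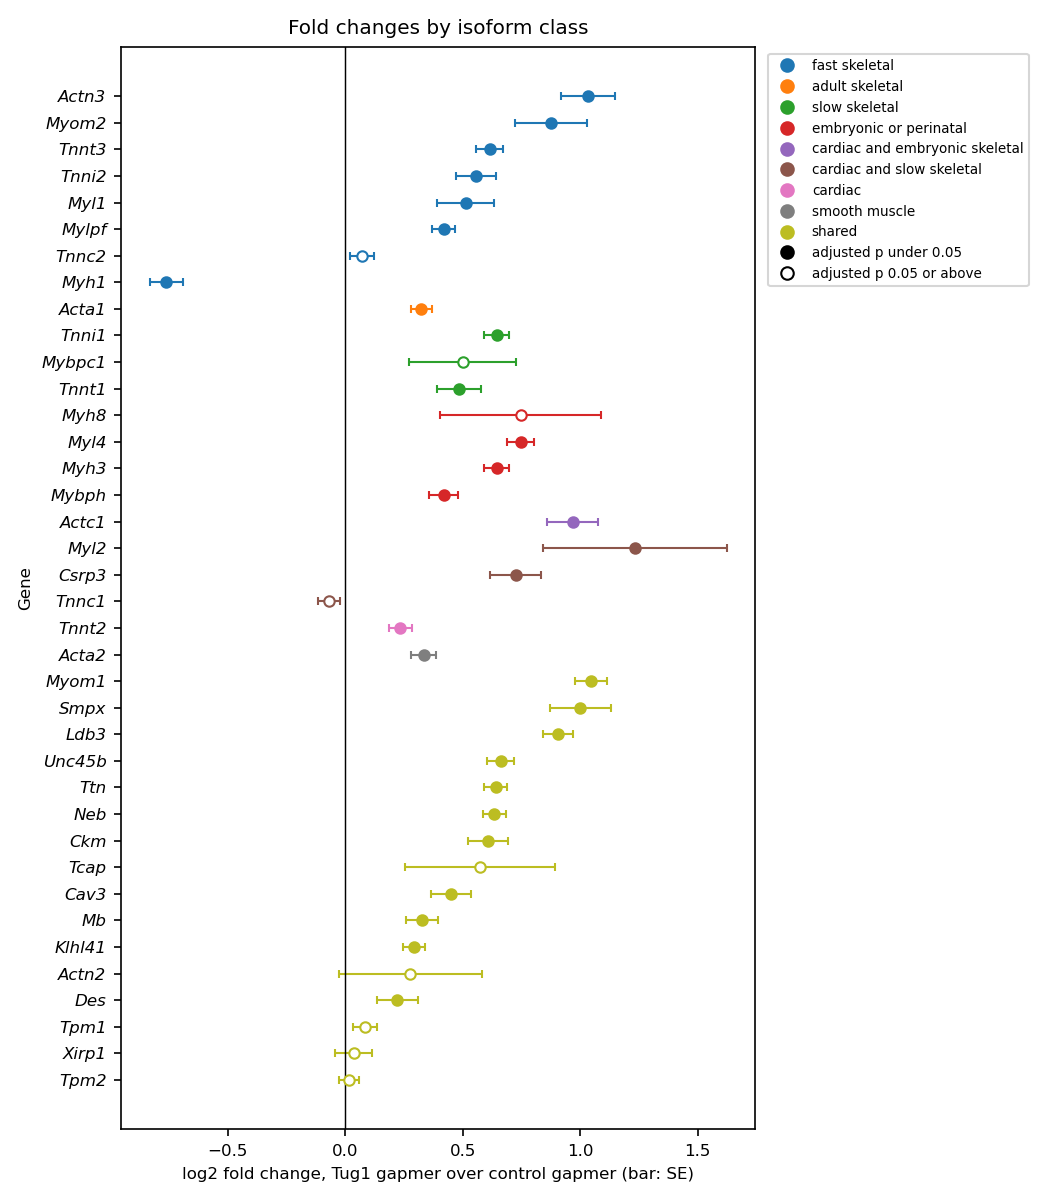
Log2 fold change of knockdown over control (x axis) with its SE as bars for the 38 tested genes, ordered and coloured by isoform class. Filled points passed an adjusted p of 0.05; Myh1 at -0.76 is the only filled point below 0, and the widest bars belong to Myl2, Myh8, Tcap and Actn2, which have few counts.

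To see whether the mixture of paralogs moved, the share of each in the summed counts of its family was taken per library. Gene length was not corrected for, so a share compares libraries and not the levels of 2 paralogs. Among the myosin heavy chains, Myh1 made up 19.6%, 20.5% and 18.4% of the counts in controls and 8.29%, 8.97% and 7.92% after knockdown. The groups were far apart, with Myh3 moving from 79.8% ± 1.03 to 90.9% ± 0.521 (SD, n = 3 each). In troponin T, Tnnt3 went from 30.5% ± 1.12 to 36.1% ± 1.33 and Tnnt2 from 65.4% ± 0.886 to 59.6% ± 1.55 (SD, n = 3 each), also without overlap. Thus the fast share fell among the heavy chains and rose in troponin T.

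Shares moved less in the other families. Tnni1 held 79.5% ± 0.468 of the troponin I counts in controls and 80.6% ± 1.00 after knockdown, and Myom1 held 85.8% ± 2.18 and 87.2% ± 2.26 of the myomesin counts (SD, n = 3 each). With a library left out, the difference ran from 0.551 points (without knockdown replicate 3) to 1.51 for Tnni1 and from 0.151 (without knockdown replicate 1) or 0.180 (without control replicate 3) to 2.27 (without knockdown replicate 2) for Myom1. Tnnc1 held 46.8% ± 0.948 of troponin C in controls and 44.5% ± 1.23 after knockdown (SD, n = 3 each), with overlapping groups. Myl1 went from 14.5% ± 1.00 to 12.5% ± 1.22 of the essential light chains, and Actc1 from 1.12% ± 0.0621 to 1.73% ± 0.0652 of the actin counts (SD, n = 3 each), both without overlap. The difference for Myl1 was -1.26 points without knockdown replicate 3. With 3 libraries against 3 the exact two-sided permutation test cannot give a p below 0.1. That value was reached by 8 of 14 shares tested (adjusted exact p 0.175): Myh1, Myh3, Tnnt2, Tnnt3, Tnni1, Myl1, Myl2 and Actc1. It is reached where the groups do not overlap, which held for the levels of 65.6% of all tested genes. Myl2, with 8, 8 and 5 counts in controls, met the mean of 10 counts needed for this test only through the knockdown libraries. Shares of a family add up to a whole, so those of Myh1 and Myh3, and of Tnnt2 and Tnnt3, are not separate results. No share passed 0.05.

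**Figure D3:**
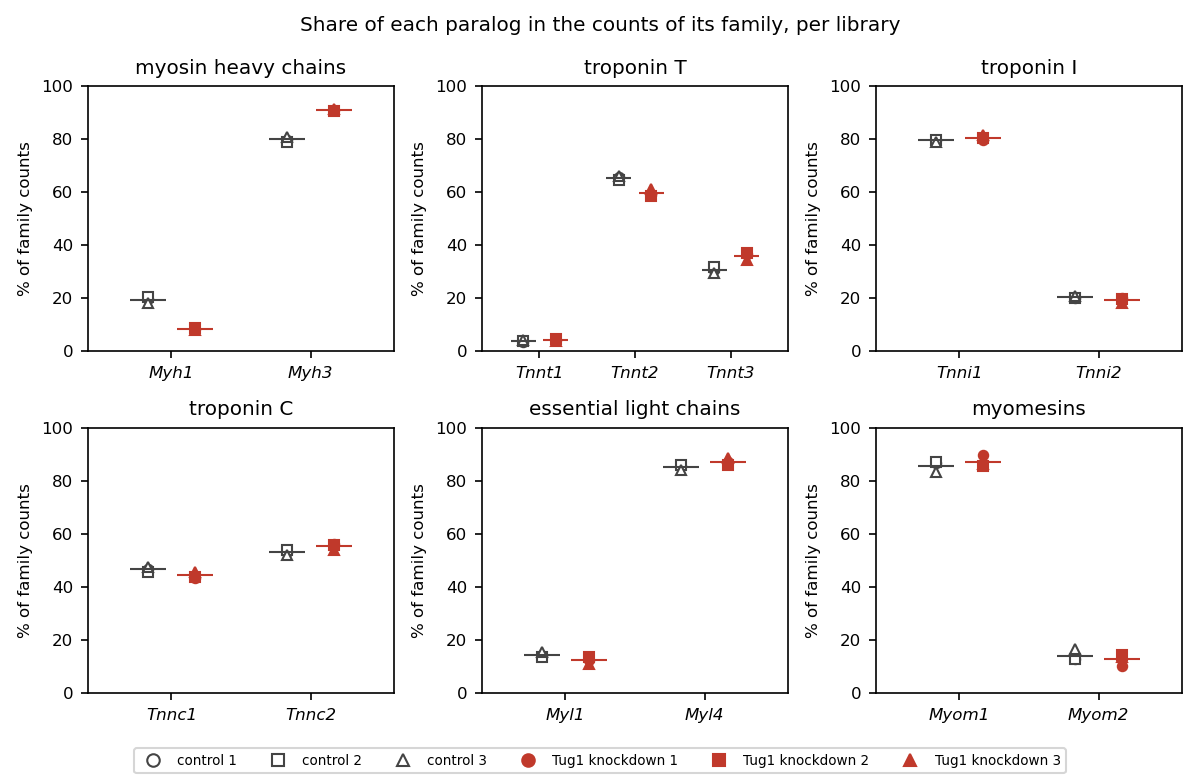
Percent of the summed counts of each family (y axis, 0 to 100) taken by each paralog with a share of at least 1%, per library, in 6 families. Open symbols are the 3 control libraries, filled symbols the 3 knockdown libraries and lines their means; Myh1 falls from 19.5% to 8.39% and Tnnt3 rises from 30.5% to 36.1%, while Tnni1 and Myom1 hardly move.

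Further genes of the sarcomere and its membrane attachments were read from a list of 64 names, of which 63 were in the table and 56 were tested. Of these, 36 were higher, 4 lower and 16 not called, beside 30.8% of all tested genes called higher and 30.9% called lower. The median log2 fold change of the 56 was 0.39. Among those with the smallest p, the muscle glycogen phosphorylase gene Pygm went from 69.9 ± 4.70 to 134 ± 15.3 CPM (SD, n = 3 each), a rise of 0.93 log2 units (SE 0.0698). Several at low levels moved further, and were chosen after their values were seen: the myosin light chain kinase Mylk4 (2.29, SE 0.277), the Z-disc gene Myoz3 (2.16, SE 0.340), the stretch-responsive gene Ankrd2 (2.10, SE 0.304), the myosin heavy chain Myh7b (1.80, SE 0.211) and the actin nucleator Lmod2 (1.71, SE 0.204). In controls Mylk4 had only 6, 21 and 13 counts, Myoz3 13, 10 and 3, and Ankrd2 16, 7 and 10. Mylk4, Myoz3 and Ankrd2 passed the filter only with the help of knockdown libraries, where they were high. The same held for Mylk2, which was called higher with 7, 8 and 7 counts in controls and 14, 18 and 13 after knockdown. All of these are among the 36 higher genes and in the median of 0.39, so those values rest in part on genes that were testable because they were high. The 4 lower genes were Cavin4 (-0.47, SE 0.0874), a caveolae protein of muscle, Synpo2 (-0.33), Pdlim1 (-0.19) and Cryab (-0.18). Among myogenic regulators, 9 of 11 were tested, 5 higher and 2 lower, to be read beside the same shares of all tested genes. Myog (0.82, SE 0.0461), Mef2d (0.69) and the fusion gene Mymx (0.65) rose, while Myod1 (-0.32, SE 0.0690) and Srf (-0.21) fell.

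The non-muscle counterparts of these proteins went mostly the other way. Of 20 names, 19 were tested, 2 were higher, 12 lower and 5 not called, with a median log2 fold change of -0.23 beside 0.53 for the muscle structural genes. Of all tested genes 30.8% were called higher and 30.9% lower. The caveolins Cav1 (380 ± 15.1 to 132 ± 10.3 CPM, SD, n = 3 each) and Cav2 were lower by log2 fold changes of -1.53 (SE 0.0539) and -1.51 (SE 0.0705), while Cav3 rose. The intermediate filament gene Vim was lower (-0.77, SE 0.0420), while Des was slightly higher. Non-muscle actins, named after their values were seen, were lower too: Actb went from 5031 ± 111 to 3508 ± 302 CPM (-0.52, SE 0.0497) and Actg1 from 1097 ± 37.0 to 665 ± 22.3 CPM (-0.72, SE 0.0430), SD, n = 3 each. The tropomyosin Tpm4, likewise named after its values were seen, was at -0.97 (SE 0.0576), while Tpm1 and Tpm2 were not called. The exceptions were the non-muscle myosin Myh10 (0.73, SE 0.0504) and the alpha-actinin Actn1 (0.57, SE 0.0488), which rose. Summed levels of the 20 genes were 12048 to 12541 CPM in controls and 8714 to 9497 CPM after knockdown.

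Smooth muscle markers moved in both directions. All 10 were tested, 5 higher and 3 lower, where 30.8% of all tested genes were called higher and 30.9% lower. The lower side was thus near the share of all tested genes. The summed level of the 10 markers was 1177 to 1291 CPM in controls and 1196 to 1358 CPM after knockdown. Cald1 (0.60), Lmod1 (0.87) and Myh11 (1.07) rose and Myl9 (-0.33), Actg2 (-0.42) and Synm (-0.23) fell, while Tagln (0.06, SE 0.0540) and Cnn1 (-0.02, SE 0.108) were not called. Acta2 (0.33), which belongs to both smooth and immature striated muscle, thus rose without Tagln and Cnn1 being called.

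**Figure D4:**
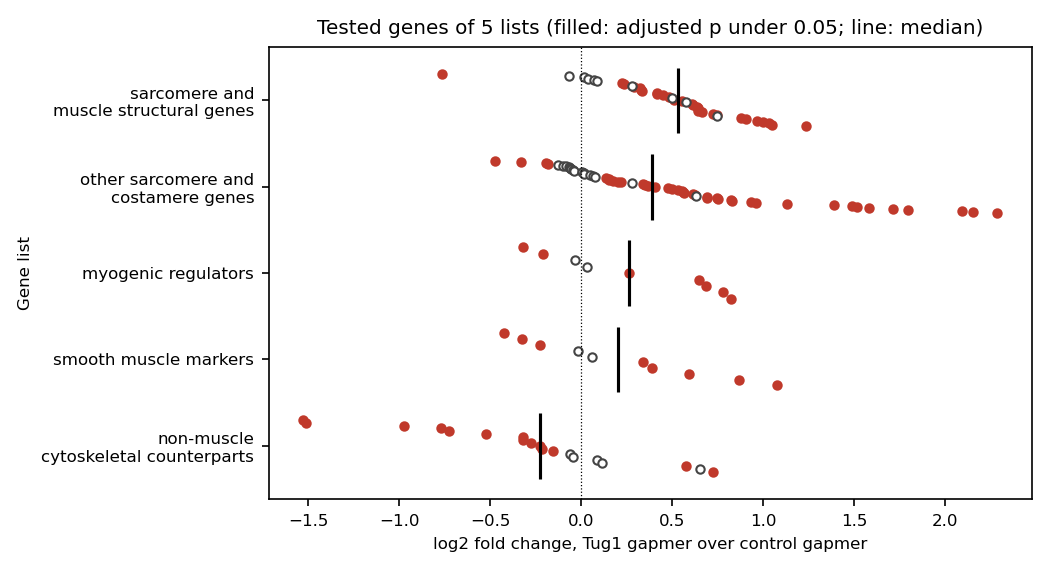
Log2 fold change of knockdown over control (x axis) of the tested genes of 5 lists (y axis), each point a gene, filled where its adjusted p was under 0.05, with the median as a vertical line. The medians are 0.53 for the sarcomere and muscle structural genes, 0.39 for other sarcomere and costamere genes and -0.23 for the non-muscle counterparts.

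The knockdown libraries did not carry the rise equally. Knockdown library 3 had the lowest of the 3 knockdown values in 20 of the 38 tested muscle structural genes (52.6%), compared with 33.2% of all tested genes. Among them were Tnnt3, Tnni2, Tnnt1, Myl1, Mylpf, Mybph, Csrp3, Ckm and Mb. Without knockdown replicate 3 the median log2 fold change of the 38 genes was 0.61 and 30 were called. Without knockdown replicate 1 it was 0.50 and 28 were called.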

How the data were processed

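RNA was measured in 6 libraries, 3 per group, and the table the authors deposited holds raw counts for each gene and library, not scaled and not pooled, as the values show. FastQC 0.11.7, fastp 0.14.1 and STAR 2.5 are named in the submitters' processing notes, without their roles. The counting tool, genome build, annotation and use of strand are not given in the sources used here. Per the labels' protocols, the kit kept strand and selected poly-A RNA.

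The table held 40456 genes, 0 unnamed entries and 0 columns outside the series. Low genes were removed with filterByExpr (count of 10, total of 15), which left 14216 with at least 99.8% of the counts of each library. Counts were scaled by TMM (factors 0.979 to 1.02) and compared with edgeR's quasi-likelihood test (edgeR 4.0.16, R 4.3.3), two-sided, without a block, with Benjamini-Hochberg adjustment over all tested genes. At this depth 1 TMM-scaled CPM was 12.9 to 13.8 counts, and the floor of 3 counts was 0.217 to 0.232 CPM, which covers counting error only. SEs were taken from the fold change and its F statistic. The gene lists and their classes, from general knowledge, and the tests and alternatives were chosen with earlier results of these data known. Named genes followed a rule: values per library for called genes with at least 10 CPM in a group or a change of 1 or more log2 units and for uncalled genes of at least 10 CPM, and from each other list the 3 called genes with the smallest p in each direction. Some genes that this rule names are not reported here. Scripts were tested on simulated data. Promoter windows and gene spans came from RefSeq (GRCr8), with spans for 13084 tested genes (92.0%). Levels per coding length, planned for comparing genes, were not computed, as no lengths of coding sequence were used here.

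Alternatives were DESeq2 size factors, library totals, DESeq2's Wald test (1.42.0), limma-voom (limma 3.58.1), no filter, a mean of at least 1 CPM, a threshold of 0.01 on the adjusted p, a block for replicate number, an offset for genomic gene length (lowess, span 0.3), that offset with the block, and each library left out in turn.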

Additional observations from a re-analysis of the deposited data

How the results depend on the processing

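Between 28 and 33 muscle structural genes were called over the 16 alternatives, 27 to 32 of them higher and 1 lower, Myh1, in each; leaving out a library gave 28 to 30. Of the 38 tested genes, 28 kept direction and call in every alternative. Changed genes in all numbered 7353 to 8987, and 8128 to 8410 with a library left out, and Tug1 ran from -2.22 to -2.08. Deviations from the group mean correlated weakly between the control and knockdown libraries of a replicate number (-0.00792, 0.0408 and 0.0368 for numbers 1 to 3). All tested genes counted alike there, low ones included, so these values cannot tell whether the libraries were paired. With the replicate number as a block 8848 genes and 30 muscle structural genes were called. The count for desmin and Cav3 together, 2, was 1 with DESeq2's Wald test, with no filter and at an adjusted p under 0.01, and 1 to 2 with a library left out. The count for genes shared by heart and slow muscle was 1 with the filter at a mean of 1 CPM, which left Myl2 out, and 1 to 2 with a library left out. The same filter took the cardiomyocyte markers to 1, and they were at 1 to 2 with a library left out. The length offset with the block took the endothelial markers from 0 to 1. Uncalled values changed sign for Tnnc1 (0.101 with the length offset, 0.102 with the block added), Tpm2 (-0.0144 to 0.0391 with a library left out) and Xirp1 (-0.0168 to 0.107, likewise), and Tnnc1 passed in the fit with both. Differences in share ran from -1.15 to 0.462 percentage points for Acta1 and from -1.04 to 0.505 for Acta2 when a library was left out. Beyond the offset's removal of a trend with gene length and the smaller sets of genes or libraries, the cause was not tested. Shares by coding length, planned, were not run. Depth limits the genes near 1 CPM, where few counts stand behind a value.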

Other observations

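By RefSeq gene spans, 16 of the 48 muscle structural genes found by symbol overlap another gene, and the use of strand in counting is not given in the sources used here. Some of these partners moved with the muscle gene. Adora1, which overlaps Mybph, had 683, 711 and 724 counts in controls and 1004, 1079 and 988 after knockdown (log2 fold change 0.48, SE 0.0587), while Mybph had 663, 643 and 687 and then 1008, 932 and 839. A non-coding gene that overlaps Des had 72, 92 and 71 counts in controls and 142, 107 and 119 after knockdown (0.59, SE 0.149). Cdc27, which overlaps Myl4, was at 0.01 (SE 0.0550), while the genes in the span given for Tnni2 went both ways, with Syt8 at 1.24 (SE 0.352), Ctsd at 0.16 (SE 0.0436) and Ifitm10 at -0.82 (SE 0.230). The part of shared reads in these values was not tested.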
